A study of Mus musculus with 7 samples.

Results

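Calcineurin and calcium/calmodulin-dependent protein kinase II (CaMKII) are the enzymes through which muscle fibres read the calcium that each contraction releases. Calcineurin is a phosphatase built from a catalytic A subunit and a regulatory B subunit. Once calcium and calmodulin activate it, it strips phosphate from NFAT transcription factors, which then enter the nucleus, and sustained activity of this kind favours the slow, oxidative fibre programme. CaMKII is a multi-subunit kinase that calmodulin switches on during repeated contraction, and its known targets in muscle include calcium-handling proteins and the class IIa histone deacetylases that hold back MEF2 factors. The members described here were fixed by gene symbol: the calcineurin genes *Ppp3ca*, *Ppp3cb* and *Ppp3r1*, the NFAT genes *Nfatc1* and *Nfatc3*, the calcineurin inhibitor gene *Rcan1*, and the CaMKII genes *Camk2a*, *Camk2b*, *Camk2d* and *Camk2g*. All 10 were present among the 12239 genes of the expression table.

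RNA was taken from the whole tibialis anterior muscle (TA), which consists mainly of fast fibres, of male mice aged 5 to 6 months on the FVBN background. The 4 WT libraries carried the intact *Mybpc2* gene, and the 3 C2-/- libraries came from knockout mice lacking fast myosin-binding protein C. In their allele a Neo selection cassette with LoxP sites at its ends takes the place of the gene from exon 2 through exon 22. The design text gives 4 animals per group, and replicates were taken as separate animals on that basis. Expression is given as log2 CPM (counts per 1000000 reads, TMM scaled). A log2 change is the C2-/- mean less the WT mean, and its standard error (SE) is limma's.

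Reads counted in the table numbered 14929214 to 15464499 in each of WT replicates 1 to 3, but only 4683853 in WT replicate 4 and 2613277 to 4917936 in each C2-/- library, so depth and genotype can be told apart only through WT replicate 4. *Mybpc2* itself stood at 12.41 to 12.85 in WT and -0.47 to 1.67 in C2-/- (3 to 8 reads), in the direction that the labels give. The tissue label was checked with the fibre genes *Ckm*, *Acta1*, *Myh4*, *Mylpf* and *Tnnt3*, whose summed level was 126000 to 157000 CPM in WT and 67200 to 85700 CPM in C2-/-, with 3 of the 5 past the threshold as lower (25.0% of all genes were) and 1, *Ckm*, after the GC correction described further on. All 4 fibroblast markers (*Pdgfra*, *Dcn*, *Lum*, *Col1a1*) were past it as higher (20.2% of all genes were), with a summed level of 339 to 521 CPM in WT and 1250 to 1430 CPM in C2-/-, and 2 of them stayed past it after the GC correction. Endothelial markers (285 to 463 CPM against 249 to 327 CPM, 1 of 5 lower), smooth muscle markers (110 to 186 CPM against 127 to 184 CPM, 1 of 4 lower), leukocyte markers (10.4 to 21.7 CPM against 18.1 to 27.7 CPM, 1 of 5 higher), Schwann and nerve markers (19.5 to 55.6 CPM against 26.8 to 53.3 CPM, 0 of 3 past the threshold), adipocyte markers (0.423 to 8.99 CPM against 3.61 to 12.2 CPM, 0 of 3) and satellite cell markers (0.91 to 2.8 CPM against 3.93 to 4.82 CPM, 1 of 2 higher) were measured as well. No measured marker was at 0 reads in all libraries, but the satellite cell markers had few, *Myf5* 1 to 20 and *Pax7* 0 to 22. *Myf5*, the one called, was not past the threshold after the GC correction (log2 change 1.04, limma adjusted p = 0.31). The part of these markers in the results was not tested, and in whole muscle a change in the number of cells of a type cannot be told apart from a change in RNA per cell.

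Upstream sequence is shown for *Rcan1*, whose transcript from the internal start is a readout of calcineurin activity, and for *Camk2b* and *Camk2d*, because these 2 CaMKII genes moved in opposite directions. Each sequence is the 250 bases before an annotated RefSeq start (GRCm38.p6), written 5′ to 3′ on the strand of the gene, with capitals marking the core NFAT motif GGAAA on either strand. The windows were chr16:92400079-92400328 (internal *Rcan1* start, minus strand), chr16:92466170-92466419 (upstream *Rcan1* start, minus strand), chr3:126596701-126596950 (*Camk2d*, plus strand) and chr11:6065749-6065998 (*Camk2b*, minus strand). Each of these windows lies inside the gene span printed below. It is therefore upstream of its RefSeq start but not of the outermost annotated start of the gene.
Rcan1 internal start: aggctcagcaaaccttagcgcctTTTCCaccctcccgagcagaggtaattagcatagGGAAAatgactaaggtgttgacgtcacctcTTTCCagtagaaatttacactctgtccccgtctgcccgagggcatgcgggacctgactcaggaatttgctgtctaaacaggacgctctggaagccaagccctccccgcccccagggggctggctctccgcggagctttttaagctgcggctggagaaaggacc
Rcan1 upstream start: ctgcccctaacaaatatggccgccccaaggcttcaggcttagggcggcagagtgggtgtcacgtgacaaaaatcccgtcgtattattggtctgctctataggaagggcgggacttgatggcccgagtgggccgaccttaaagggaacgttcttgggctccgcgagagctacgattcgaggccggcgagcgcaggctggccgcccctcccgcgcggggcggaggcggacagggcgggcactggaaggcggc
Camk2d: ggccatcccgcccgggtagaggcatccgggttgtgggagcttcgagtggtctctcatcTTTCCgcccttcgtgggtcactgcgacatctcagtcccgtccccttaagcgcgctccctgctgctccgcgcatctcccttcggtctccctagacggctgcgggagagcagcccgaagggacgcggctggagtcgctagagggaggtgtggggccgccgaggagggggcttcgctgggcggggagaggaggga
Camk2b: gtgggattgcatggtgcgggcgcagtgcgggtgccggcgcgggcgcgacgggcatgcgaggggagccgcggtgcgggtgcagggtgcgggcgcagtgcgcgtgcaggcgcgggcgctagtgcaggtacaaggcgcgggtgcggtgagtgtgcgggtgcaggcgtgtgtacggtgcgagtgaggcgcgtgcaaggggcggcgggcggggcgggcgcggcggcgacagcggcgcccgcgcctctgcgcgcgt

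The internal *Rcan1* window held 3 core NFAT matches, beginning at positions -227, -193 and -163 from the start, and 1 AP-1 match (TGANTCA, either strand) at -110. The upstream *Rcan1* window, 66091 bases away, held none of either. Of 32851 annotated starts searched in the same way, 55.6% had at least 1 core NFAT match, 6.39% had at least 3, and 6.75% had an AP-1 match. *Camk2d* had 1 core NFAT match at -192 and *Camk2b* had 0, and the GC content of the windows was 68.4% and 78.4%, against a median of 52.4% over all starts. Among the other windows, that of *Ppp3cb* also held 3 core NFAT matches, and the 2 starts of *Nfatc3* held 1 and 0. No MEF2 motif was present in the 8 windows found for 6 members (2.92% of all starts held one). No match overlapped another. A match describes letters only, and reads counted per gene cannot be assigned to either *Rcan1* start.

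In C2-/- TA muscle the transcripts of the catalytic calcineurin gene *Ppp3ca* and of the CaMKII gene *Camk2d* were about 3 times as abundant as in WT in the deposited values. Their log2 changes of 1.59 and 1.60 became 1.12 and 0.95 when a trend on GC content was removed, and 0.73 (limma adjusted p = 0.157, the call lost) and 1.25 when WT replicate 4 was the only WT library. Transcripts of *Ppp3cb* were higher and those of *Camk2b* and *Camk2a* lower in the deposited values, but these 3 calls ended with the GC correction. *Nfatc1*, *Nfatc3*, *Rcan1*, *Ppp3r1* and *Camk2g* were not past the threshold, and *Camk2g* came to be past it as higher (log2 change 0.75) after that correction. A gene was past the threshold with a limma adjusted p under 0.05 over all 12239 genes and a fold change above 1.5 either way. Of the 10 members 3 were past it as higher (20.2% of all genes were) and 2 as lower (25.0% of all genes), so 5 of 10 compares with 45.2% of all genes. The C2-/- values lay wholly above the WT values in 3 members and wholly below them in 3, where 22.6% and 26.7% of all genes did so (49.3% in either direction). The median log2 change of the members was 0.21 and that of all genes -0.14. Every member had between 107 and 9219 reads in every library, so that none was near the floor of 3 reads.

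**Figure D1:**
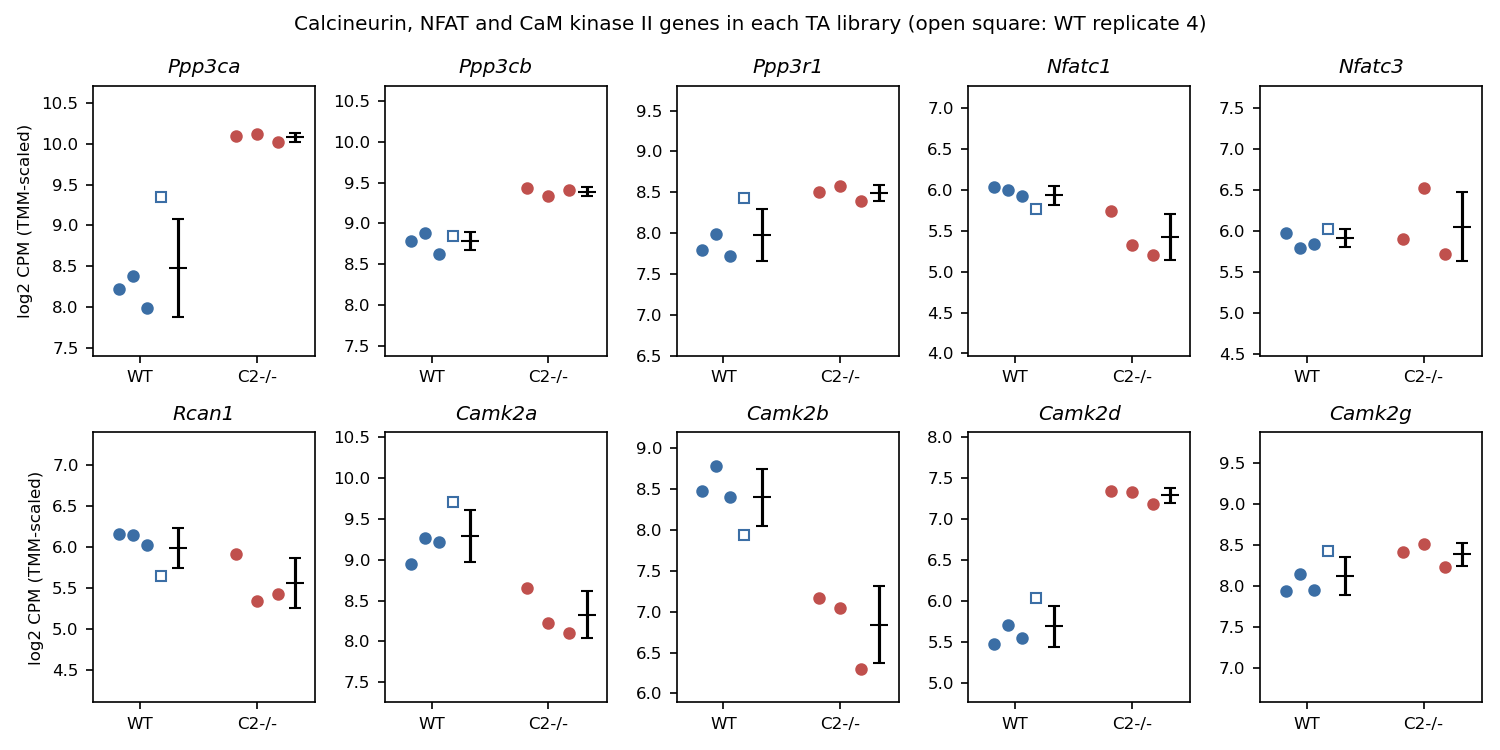
Log2 CPM of each member (vertical axes, each spanning the same range of log2 units) in the 4 WT libraries (blue, WT replicate 4 as an open square) and the 3 C2-/- libraries (red), with the mean and SD of each group in black. *Ppp3ca*, *Ppp3cb* and *Camk2d* lie higher in every C2-/- library than in any WT library, *Nfatc1*, *Camk2a* and *Camk2b* lie lower, and the groups overlap in the other 4 genes.

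The calcineurin catalytic subunits were examined first. *Ppp3ca*, which encodes the alpha form of the A subunit, lies on the plus strand of chromosome 3 (136670124 to 136937727, GRCm38). Its log2 values were 8.22, 8.38, 7.99 and 9.35 in WT replicates 1 to 4 (mean 8.48, SD 0.60, n = 4) and 10.09, 10.12 and 10.02 in the 3 C2-/- libraries (mean 10.07, SD 0.05). The C2-/- libraries were nearly identical to each other and all above WT, while WT replicate 4 lay between the other WT libraries and C2-/-. Between the groups the log2 change came to 1.59 (limma SE 0.28 and adjusted p = 0.00195), or 3.01-fold. Set against WT replicates 1 to 3 alone the C2-/- mean was 1.88 higher, and set against WT replicate 4 alone it was 0.73 higher.

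*Ppp3cb* encodes the beta form of the A subunit (chromosome 14, minus strand, 20499364 to 20546573), and the antisense gene 1810062O18Rik overlaps it. The libraries stood at log2 values of 8.78, 8.88, 8.63 and 8.84 in WT (mean 8.78, SD 0.11, n = 4) and 9.43, 9.33 and 9.41 in C2-/- (mean 9.39, SD 0.05, n = 3). For this gene WT replicate 4 did not stand apart from the other WT libraries, and all C2-/- libraries were above them. The log2 change of 0.61 (SE 0.14, limma adjusted p = 0.00684) was 1.52-fold, just beyond the minimum of 1.5, and it was not past the threshold without WT replicate 3 (0.55) or with quantile normalization (0.31, limma adjusted p = 0.102).

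*Ppp3r1* encodes the B subunit that the catalytic subunits need (chromosome 11, plus strand, 17159263 to 17200375, overlapped on the same strand by *Wdr92*). It had log2 values of 7.79, 7.99, 7.72 and 8.43 in WT and 8.50, 8.58 and 8.39 in C2-/-. WT replicate 4 lay within the C2-/- range, so the groups overlapped. Between the groups the log2 change came to 0.51 (limma SE 0.19 and adjusted p = 0.0488), or 1.42-fold and under the fold minimum. Without WT replicate 4 it was 0.66 and past the threshold.

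Levels of different genes were compared only per length, as CPM per kilobase (1000 bases) of the longest protein-coding transcript. In WT the order was *Ppp3cb* (115 ± 8.65 CPM per kilobase, SD, n = 4), *Ppp3r1* (90.2 ± 21.4), *Ppp3ca* (80.7 ± 38.0) and the third catalytic gene *Ppp3cc* (20.1 ± 9.47), and the ranges of the first 3 overlapped. In C2-/- the order was *Ppp3ca* (227 ± 8.09, SD, n = 3), *Ppp3cb* (175 ± 5.86), *Ppp3r1* (126 ± 7.93) and *Ppp3cc* (24.7 ± 4.88). *Ppp3ca* was thus the lower of the 2 main catalytic transcripts in WT replicates 1 to 3, with log2 ratios to *Ppp3cb* per length of -0.95 to -0.81, and the higher in C2-/-, with log2 ratios of 0.30 to 0.47. WT replicate 4, at 0.19, stood on the C2-/- side. In the deposited values the 3 catalytic genes together amounted to 171 to 291 CPM per kilobase in WT and 416 to 432 in C2-/-. After the GC correction the log2 change was 1.12 for *Ppp3ca* and turned to -0.50 for *Ppp3cb*. No GC-corrected sum was computed, so whether the groups stay apart in it was not tested.

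The NFAT factors and the inhibitor *Rcan1* are the next step of the pathway. *Nfatc1* (chromosome 18, minus strand, 80606205 to 80713071) encodes the NFAT factor whose nuclear entry in muscle follows slow patterns of activity. Its log2 values were 6.04, 6.00, 5.92 and 5.77 in WT and 5.74, 5.33 and 5.20 in C2-/-. Each C2-/- value was below each WT value, although C2-/- replicate 1 and WT replicate 4 were almost equal. Between the groups the log2 change came to -0.51 (limma SE 0.19 and adjusted p = 0.0496), which is under the fold minimum. It was past the threshold without C2-/- replicate 1 (-0.67) and with quantile normalization (-0.61), and it turned to 0.30 after the GC correction.

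*Nfatc3* encodes another calcineurin-dependent NFAT factor (chromosome 8, plus strand, 106058840 to 106130537, overlapped by *Esrp2* on the opposite strand). It stood at 5.98, 5.80, 5.84 and 6.03 in WT and at 5.91, 6.53 and 5.72 in C2-/-. The C2-/- values lay on both sides of the WT range, and the log2 change of 0.14 (SE 0.21, limma adjusted p = 0.598) was smaller than the spread between the C2-/- libraries (SD 0.42).

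*Rcan1* (chromosome 16, minus strand, 92391953 to 92470867) encodes a calcineurin inhibitor, and the transcript from its internal start, shown above with its NFAT motifs, is a standard readout of calcineurin activity. The libraries stood at log2 values of 6.16, 6.15, 6.02 and 5.64 in WT and 5.91, 5.34 and 5.43 in C2-/-. The groups overlapped, with WT replicate 4 below C2-/- replicate 1. This gave a log2 change of -0.43 (limma SE 0.21 and adjusted p = 0.114). It was -0.61 and past the threshold without C2-/- replicate 1. The log2 ratio of *Rcan1* to *Nfatc1* per length was 0.92 to 1.19 in WT and 1.06 to 1.28 in C2-/-, so that the groups overlapped, whereas after the GC correction it was 0.89 to 1.13 in WT and 1.16 to 1.34 in C2-/-, with no overlap.

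Among the CaMKII genes, members moved in opposite directions. *Camk2d* encodes the delta subunit (chromosome 3, plus strand, 126596302 to 126846326). Its log2 values were 5.47, 5.71, 5.55 and 6.04 in WT (mean 5.69, SD 0.25, n = 4) and 7.35, 7.33 and 7.19 in C2-/- (mean 7.29, SD 0.09, n = 3). Every C2-/- library was more than 1 log2 unit above the highest WT library. This gave a log2 change of 1.60 (limma SE 0.18 and adjusted p = 0.000321), or 3.03-fold, and the C2-/- mean was 1.25 above WT replicate 4.

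*Camk2b* encodes the beta subunit, whose muscle form is abundant in skeletal fibres (chromosome 11, minus strand, 5969644 to 6066362). It stood at 8.47, 8.78, 8.40 and 7.94 in WT (mean 8.40, SD 0.35, n = 4) and at 7.17, 7.05 and 6.30 in C2-/- (mean 6.84, SD 0.47, n = 3). The C2-/- libraries were all below WT, and WT replicate 4 was the lowest WT library. This gave a log2 change of -1.56 (limma SE 0.25 and adjusted p = 0.00132), a 2.94-fold lower level.

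*Camk2a* (chromosome 18, plus strand, 60925618 to 60988152) encodes the alpha subunit of the brain and, in muscle, also αKAP, an anchoring protein without kinase domain from the same gene, and reads per gene do not separate these products. The libraries stood at log2 values of 8.95, 9.27, 9.22 and 9.71 in WT (mean 9.29, SD 0.32, n = 4) and 8.65, 8.23 and 8.10 in C2-/- (mean 8.33, SD 0.29, n = 3). All C2-/- libraries were below WT, and here WT replicate 4 was the library farthest from them. This gave a log2 change of -0.96 (limma SE 0.21 and adjusted p = 0.00505), or 1.95-fold lower, and the C2-/- mean was 1.39 below WT replicate 4.

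*Camk2g* encodes the gamma subunit (chromosome 14, minus strand, 20734875 to 20794088). Its log2 values were 7.94, 8.15, 7.95 and 8.43 in WT and 8.42, 8.51 and 8.23 in C2-/-, and WT replicate 4 lay among the C2-/- libraries. This gave a log2 change of 0.27 (limma SE 0.17 and adjusted p = 0.205).

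Together these changes altered the composition of the transcripts counted for the 4 CaMKII genes. The *Camk2a* count can include αKAP, so its level and the shares below need not be of kinase transcripts alone. In WT the order per length was *Camk2a* (128 ± 29.2 CPM per kilobase, SD, n = 4), *Camk2b* (85.5 ± 19.7), *Camk2g* (75.7 ± 12.5) and *Camk2d* (9.47 ± 1.72), and *Camk2b* and *Camk2g* differed by less than their spread and the ranges of *Camk2a* and *Camk2b* overlapped. In C2-/- it was *Camk2g* (90.7 ± 8.70, SD, n = 3), *Camk2a* (65.5 ± 13.7), *Camk2b* (29.4 ± 8.67) and *Camk2d* (28.4 ± 1.67), the last pair not differing beyond their spread. In the deposited values the 4 genes summed to 262 to 335 CPM per kilobase in WT and 182 to 239 in C2-/-. No GC-corrected sum was computed, and *Camk2a* and *Camk2b* were not past the threshold after the GC correction. With that correction the log2 ratio of *Camk2d* to *Camk2b* per length was -1.55 to -0.69 in C2-/-, so *Camk2b* then stood above *Camk2d*.

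*Camk2d* made up 2.97% to 3.55% of that sum in WT and 12.4% to 14.5% in C2-/-. *Camk2b* made up 33.6%, 34.2%, 30.1% and 18.2% in WT replicates 1 to 4 and 10.7% to 15.0% in C2-/-. The *Camk2g* share was 23.9% to 27.8% in WT and 38.8% to 44.5% in C2-/-, and the *Camk2a* share was 38.1% to 50.5% in WT and 27.3% to 33.9% in C2-/-. No share overlapped between the groups, although after the GC correction those of *Camk2b* did (16.8% to 29.5% in WT and 13.9% to 21.3% in C2-/-). These shares describe the libraries and carry no test.

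**Figure D2:**
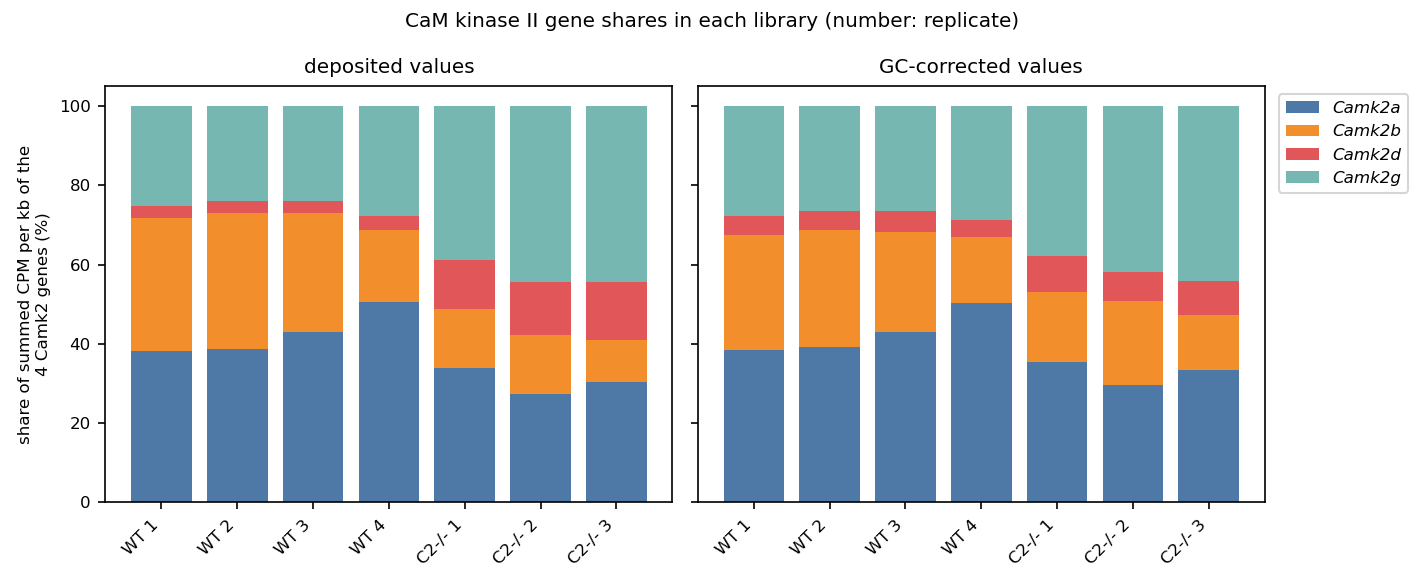
Stacked bars give each CaMKII gene's share (%) of the summed CPM per kilobase of the 4 genes in every library, from the deposited values (left) and after the correction for GC content (right). In both panels *Camk2d* and *Camk2g* take a larger share in each C2-/- library than in each WT library, and the *Camk2d* mean in C2-/- is 13.4% on the left and 8.30% on the right.

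A property that the choice of members did not use moved with the changes. The GC content of the members' transcripts ran from 39.8% (*Ppp3cb*) to 56.2% (*Camk2b*), with a median of 50.2% over all genes. All 5 members under 50% GC had a positive log2 change, and 4 of the 5 above 50% a negative one, *Camk2g* (51.8%) being the exception. Ranked over the 10 members, GC content and log2 change had a Spearman's rho of -0.84, and over the 12171 genes with a matched transcript the rho was -0.68. These are descriptions over genes, which share the same 7 libraries.

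**Figure D3:**
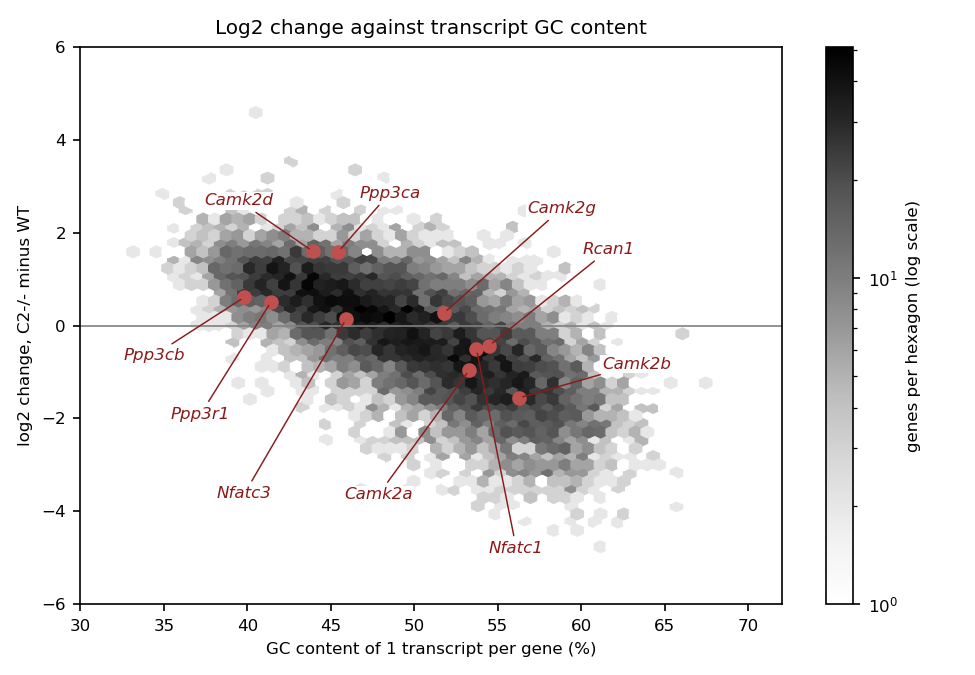
Log2 change (vertical axis) is plotted against the GC content of 1 transcript per gene (horizontal axis, %) for 12171 genes as grey hexagons shaded by the number of genes on a log scale, with the 10 members as red points. 1 gene lies outside the vertical range and 2 outside the horizontal range. The members follow the downward trend of all genes, with *Camk2d* and *Ppp3ca* on its upper side.

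Each library's trend on GC content was therefore removed, and the members were read again from the same fit. *Ppp3ca* (log2 change 1.12, SE 0.25, limma adjusted p = 0.0133) and *Camk2d* (0.95, SE 0.15, limma adjusted p = 0.00379) stayed past the threshold as higher, with every C2-/- library above every WT library. *Camk2g* came to be past it as well (0.75, SE 0.19, limma adjusted p = 0.0238). Thus 3 of 10 members were higher (12.3% of all genes) and 0 were lower (8.31% of all genes), against 20.6% of all genes in either direction. At an unadjusted limma p under 0.05, 4 members were higher (20.1% of all genes) and 2 lower (*Ppp3cb* and *Ppp3r1*; 16.3% of all genes).

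The other calls did not hold after this correction. *Camk2b* was at -0.34 (limma adjusted p = 0.316) and *Camk2a* at -0.22 (limma adjusted p = 0.506), and the groups overlapped in both. *Ppp3cb* turned from 0.61 to -0.50 (limma adjusted p = 0.0343) and *Ppp3r1* from 0.51 to -0.43 (limma adjusted p = 0.0611), both under the fold minimum. *Rcan1* turned from -0.43 to 0.51 (limma adjusted p = 0.0444), *Nfatc1* from -0.51 to 0.30 and *Nfatc3* from 0.14 to -0.27, and none of these was past the threshold. 5 of the 10 directions therefore depended on the correction. After it the C2-/- values lay wholly above WT in 5 members (*Ppp3ca*, *Nfatc1*, *Rcan1*, *Camk2d* and *Camk2g*; 18% of all genes) and wholly below in 2 (*Ppp3cb* and *Ppp3r1*; 15.5% of all genes).

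For *Ppp3ca* the corrected values were 8.44, 8.61, 8.26 and 9.44 in WT and 9.84, 9.87 and 9.70 in C2-/-. For *Camk2d* they were 5.79, 6.03, 5.93 and 6.15 in WT and 7.02, 6.95 and 6.78 in C2-/-. WT replicate 4 was the highest WT library for both genes, near C2-/- for *Ppp3ca* and close to the other WT libraries for *Camk2d*.

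**Figure D4:**
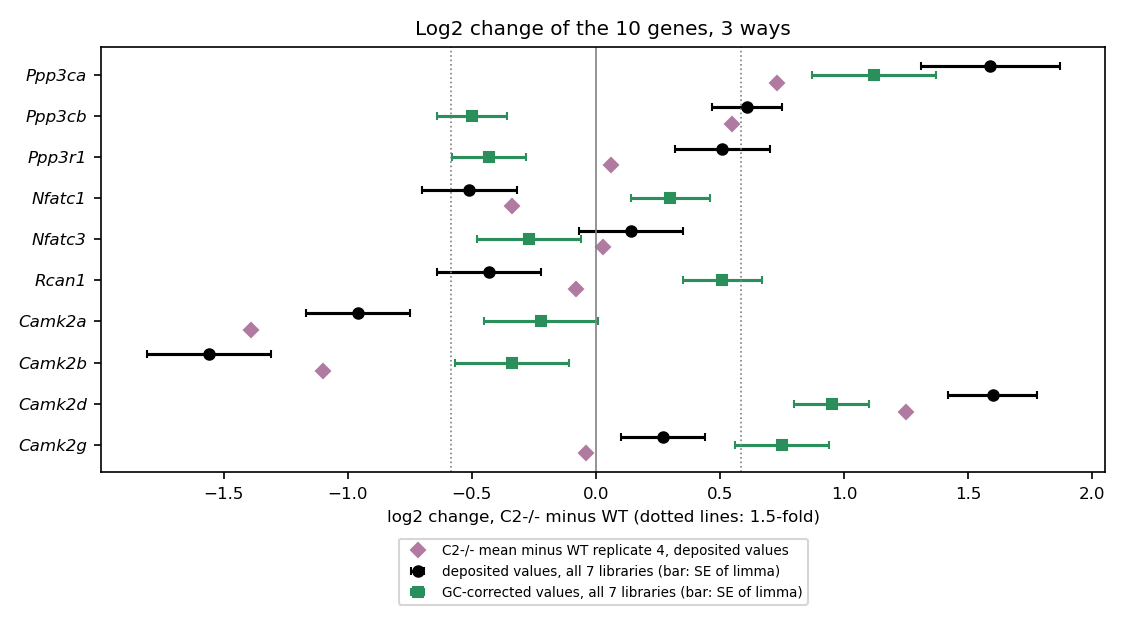
Log2 change of each member (horizontal axis) from the deposited values (black circles, bars giving the SE), from GC-corrected values (green squares, bars giving the SE), and as the C2-/- mean minus WT replicate 4 alone (purple diamonds, no error). *Ppp3ca* and *Camk2d* lie beyond the dotted 1.5-fold line on the right in all 3, while *Ppp3cb*, *Ppp3r1*, *Nfatc1*, *Nfatc3* and *Rcan1* change sign between the black and green points.

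Within the shallow libraries alone, WT replicate 4 against the 3 C2-/- libraries, *Camk2d* (log2 change 1.25) and *Camk2a* (-1.39) were past the threshold, a rule that 4.53% of all genes met in that fit. *Ppp3ca* (0.73) and *Camk2b* (-1.10) kept their direction without passing it. That fit takes the lone WT library to vary as the C2-/- libraries do. With both the GC correction and the shallow libraries only, 0 of the 10 members and 0.164% of all genes were past the threshold, and the values were 0.77 for *Camk2d*, 0.37 for *Ppp3ca* and -0.85 for *Camk2a*, the largest of the members. At an unadjusted limma p under 0.05, 1 member was higher (*Camk2d*; 7.57% of all genes) and 2 were lower (*Camk2a* and *Ppp3r1*; 4.99% of all genes) in that fit.

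The remaining genes of the pathway were taken from fixed lists of 73 symbols, of which 61 were measured. Of these, 10 were higher and 17 were lower past the threshold, with a median log2 change of -0.34. These 44.3% past the threshold stood beside 45.2% of all genes (20.2% higher, 25.0% lower). After the GC correction 8 were higher and 4 lower, or 19.7% beside 20.6% of all genes, so that the counts over the lists were close to the background in both. Of the listed genes, 5 were past the threshold in the same direction in both, among them *Myoz1*, *Myoz3*, *Gsk3b* and *Eef2k*.

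The list of calcineurin modulators and anchors held *Myoz1*, the gene with the largest fall among those 5. *Myoz1* and *Myoz3* encode calsarcins, proteins of the Z-disc that tether calcineurin in fast fibres. *Myoz1* was 10.97 to 11.28 in WT and had a log2 change of -2.61 (limma adjusted p = 0.000162), which was -1.64 after the GC correction and -2.43 against WT replicate 4. *Myoz3* fell by 1.55 on the log2 scale (limma adjusted p = 0.000294), with -1.23 after the GC correction. The slow-fibre calsarcin gene *Myoz2* ran from 0.77 to 4.6 among the WT libraries and was not past the threshold (1.41, limma adjusted p = 0.156).

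In the same list of 15 measured modulators and anchors, *Rcan2*, a paralog of *Rcan1*, was higher by 0.59, *Cabin1*, a calcineurin-binding inhibitor gene, was lower by -1.38, and *Chp2*, a calcineurin B homologue gene with 0 to 8 reads in C2-/-, was lower by -3.06, a value that depends on the prior count. These 3 were not past the threshold after the GC correction. In all, 2 of the 15 were higher (20.2% of all genes) and 4 lower (25.0% of all genes), with a median of -0.44.

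Among the NFAT genes outside the members, *Nfatc2* (log2 change -0.95) and *Nfatc4* (-2.66, with 0 to 6 reads in C2-/-) were past the threshold as lower and *Nfat5*, the calcineurin-independent family member, as higher (1.02). After the GC correction none of the 3 was. Of 13 kinases and partners that act on NFAT, *Gsk3b*, which encodes a kinase that sends NFAT out of the nucleus, was higher by 1.06 and by 0.67 after the GC correction. *Mapk8* (1.29) and *Homer2* (1.15) were higher and *Dyrk1b* (-2.44) and *Mapk14* (-1.04) lower in the deposited values only, and the other 8 were not past the threshold in those values, although *Gsk3a*, *Csnk1e* and *Homer1* were after the GC correction.

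The calmodulin genes *Calm2* and *Calm3* encode the same protein. *Calm2* was higher by 1.0 (limma adjusted p = 0.001) and *Calm3* lower by -1.53 (limma adjusted p = 0.00102), while *Calml4* was at -0.22. After the GC correction the changes of *Calm2* and *Calm3* were 0.21 and -0.05. Their transcripts differ in GC content, 42.7% for *Calm2* and 58.2% for *Calm3*.

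Of 6 other CaM kinase and CaMKII inhibitor genes, *Camk1* (-1.62), *Pnck* (-2.91, with 0 to 7 reads in C2-/-) and *Eef2k* (-1.58), which encodes the calmodulin-dependent kinase of elongation factor 2, were past the threshold as lower. *Eef2k* was -1.30 after the GC correction (limma adjusted p = 0.00223), and the other 2 were not past the threshold then. *Camk2n1*, an inhibitor of CaMKII, was at 0.23, and at 1.04 after the GC correction (limma adjusted p = 0.0493).

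Of 11 measured MEF2, class IIa deacetylase and coactivator genes, 3 were higher (20.2% of all genes) and 4 lower (25.0% of all genes). *Ppargc1a*, the oxidative coactivator gene, was higher by 1.61, *Mef2c* by 1.04 and *Mef2a* by 0.97, and *Hdac5* (-2.13), *Sik1* (-1.49), *Mef2d* (-1.07) and *Hdac7* (-1.06) were lower. After the GC correction none of these 7 was past the threshold. Of 8 slow and oxidative fibre genes, *Mb*, the myoglobin gene, was past the threshold as lower (-1.64, and -0.64 and not past it after the GC correction). The other 7 were not past it, among them *Myh7*, the slow myosin gene, with 0 reads in every C2-/- library, and *Myh2* at -0.20. WT replicate 4 was the lowest WT library in all 8. Against it alone *Myh2* (1.85), *Casq2* (1.29), *Myl3* and *Tnnc1*, 4 of the 8, had positive differences where the change over all libraries was negative. For *Myl3* and *Tnnc1* no size is given, because WT replicate 4 was under the floor of 3 reads (log2 values -0.81 and -1.55). *Tnnc1* also had 0 to 5 reads in C2-/-, so these directions rest on few reads. *Myh7* had 0 reads in WT replicate 4 and in C2-/-, so its difference is not given. *Ppp3cc*, the only calcineurin subunit gene measured beyond the members, was at 0.38 (limma adjusted p = 0.323).

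**Figure D5:**
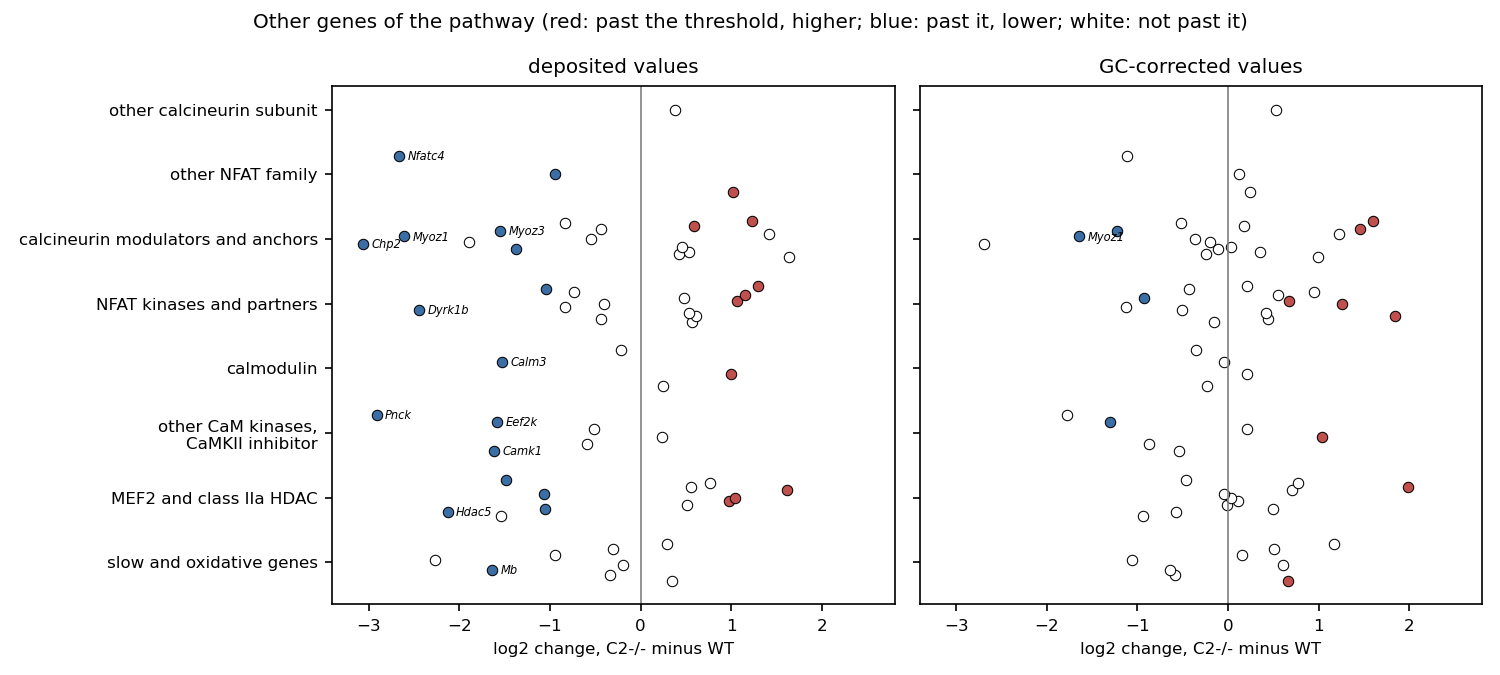
Log2 change of the 61 measured genes of the other pathway lists (horizontal axes), grouped by list, from the deposited values (left) and after the GC correction (right); filled points are past the threshold (red higher, blue lower) and white points are not. The 27 filled points on the left become 12 on the right, and *Myoz1* is filled on the low side in both panels.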

How the data were processed

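Per the labels and the study's methods, the authors removed low-quality reads, mapped those left with HISAT (genome build GRCm38.p6), counted reads per gene with featureCounts 1.5.2, scaled them with edgeR's TMM factors and deposited log2 values for 12239 genes, 1 column for each of the 7 libraries. How strand and multiply mapped reads were treated was not given in the sources used here. A second deposited table holds the authors' own limma/voom comparison (fold changes and p-values) and was not used. Each deposited log2 value equalled that of a whole read number plus 0.5 per effective library size (100.0% whole within 0.0001 reads), which gave the reads. A floor of 3 reads stood at 0.195 to 1.12 CPM and covers counting error only.

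The members, the other lists and the rule for named genes (every member, and the genes of a list past the threshold, up to 6 each by size of change) were chosen with earlier results of these data known. The test was limma 3.58.1 in R 4.3.3 (lmFit, eBayes with a trend) on the deposited values, with genotype as the only term, two-sided, Benjamini-Hochberg adjusted over all genes, and was tested on simulated data. GC content and length came from the longest protein-coding GENCODE transcript, matched for 12171 genes (99.4%), and the GC correction replaced a natural spline (5 degrees of freedom) in each library by the mean curve. Same-numbered WT and C2-/- libraries did not deviate together (r = 0.05, -0.06 and -0.05), so the numbers were not taken as pairs. Alternatives were quantile normalization, median centring, a minimum mean log2 value of 3, a prior count of 2, no trend, voom on the recovered reads, library quality weights, thinned reads, GC and length corrections, the shallow libraries only, a replicate block, an adjusted p under 0.01 and leaving out each library. Promoter windows came from RefSeq, GRCm38.p6, and were found for 6 members. The values of some listed genes are not reported here.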

Additional observations from a re-analysis of the deposited data

Results flagged for a closer look

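Values of the 4 WT libraries were checked with Dixon's test, which compares the distance of an extreme library from its neighbour with the whole range. Of 22 quantities tested 5 were singled out, and all 5 belonged to WT replicate 4. Independent quantities would give about 1.1 by chance, but these share the same 4 libraries and are not independent. The 5 are therefore not separate findings. Its total was 4683853 reads, where the remaining WT totals were 14929214 to 15464499, and 75 of its genes had 0 reads, against 1 to 3. Its *Camk2d* share of the CaMKII transcripts was 3.55%, against 2.97% to 3.06%. Its log2 ratio of *Ppp3ca* to *Ppp3cb* per length was 0.19, against -0.95 to -0.81, and that of *Rcan1* to *Nfatc1* was 0.92, against 1.15 to 1.19. The 3 C2-/- libraries are too few for this check.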

How the results depend on the processing

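The 22 alternatives comprised 7 fits that each left out 1 library and 15 others, of which the combinations of the GC correction with the replicate block or with the shallow libraries were chosen after the data were seen. *Camk2d* kept its direction and call in 21 of 22, *Ppp3ca* in 20, *Camk2a* in 18, *Camk2b* in 17 and *Ppp3cb* in 15. Median centring moved the median log2 change of all genes from -0.14 to 0.02. Where no cause is shown by how an alternative was built, the cause was not tested.

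Leaving out 1 library gave 4 to 7 members past the threshold (2 to 4 higher, 2 to 4 lower), 20 to 34 other pathway genes (9 to 15 higher, 11 to 19 lower) and 4095 to 6136 of all genes (1896 to 2876 higher, 2193 to 3260 lower). The 4 lower members came without C2-/- replicate 1 (*Nfatc1* and *Rcan1* added), and the 11 lower pathway genes without WT replicate 1. *Nfatc3* ranged from -0.10 (without C2-/- replicate 2) to 0.31.

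With the GC correction and with the GC and length correction, 3 members were past the threshold in both (0 lower), with 12 and 13 other pathway genes (4 lower in both) and 2504 and 2508 genes in all (1492 and 1502 higher, 1012 and 1006 lower). The log2 changes in these 2 fits were -0.50 and -0.44 for *Ppp3cb*, -0.43 and -0.36 for *Ppp3r1*, 0.30 and 0.37 for *Nfatc1*, -0.27 and -0.25 for *Nfatc3*, and 0.51 and 0.56 for *Rcan1*. With the shallow libraries only, a fit of fewer samples, 2 members (1 higher, 1 lower), 8 other pathway genes (2 higher, 6 lower) and 554 of all genes (313 higher, 241 lower) were past it, and *Camk2g* was -0.04. With the shallow libraries and the GC correction there were 0 members (0 higher, 0 lower), and *Ppp3cb* was -0.29, *Ppp3r1* -0.64, *Nfatc1* 0.26, *Nfatc3* -0.30 and *Rcan1* 0.62. An adjusted p under 0.01, a stricter rule, gave 3216 of all genes (1456 higher, 1760 lower) and 11 lower pathway genes.

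Replicate numbers were not pairs, and WT replicate 4 has no C2-/- library of its number, so the replicate block also takes it out of the log2 change. The block gave 6 members (4 higher, 2 lower) past the threshold, with *Ppp3r1* at 0.66 added to the 5, and 48.2% of all genes (5901), and leaving out WT replicate 4 without a block gave the same 6 members, the same log2 changes and 50.1% of all genes. The replicate block with the GC correction gave 3 (0 lower) and 23.9% of all genes, with *Ppp3cb* at -0.57, *Ppp3r1* at -0.36, *Nfatc1* at 0.32, *Nfatc3* at -0.27 and *Rcan1* at 0.47.

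The CaMKII shares depended on the transcript length used. With the mean length, *Camk2a* was 50.2% in WT and 36.5% in C2-/-, *Camk2b* 10.6% in C2-/-, and *Camk2d* 2.45% in WT and 10.5% in C2-/-. After the GC correction *Camk2b* was 17.6% in C2-/-, *Camk2d* 4.79% in WT and 8.30% in C2-/-, and *Camk2g* 27.4% in WT.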

Other observations

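After the GC correction 7 genes of the other pathway lists were past the threshold that were not past it in the deposited values. They were *Ppargc1b*, a coactivator gene (log2 change 1.98 corrected, 0.55 deposited), *Csnk1e* (1.84 and 0.61) and *Gsk3a* (1.26 and -0.40), which encode NFAT kinases, *Ppp1r9b* (1.45 and -0.44), *Camk2n1* (1.04 and 0.23), *Atp2a2*, the slow calcium pump gene (0.66 and 0.35), and, as lower, *Homer1* (-0.93 and 0.48). They were chosen after their values were seen.

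*Ppp3cb* and *Camk2g* lie 188301 bases apart on chromosome 14, and *Camk2d* and *Ppp3ca* 9823797 bases apart on chromosome 3. *Camk2b* and *Ppp3r1* share chromosome 11, and *Camk2a* and *Nfatc1* share chromosome 18. No member lies on chromosome 7, which carries *Mybpc2*.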
